A study of Mus musculus with 8 samples.

Results

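Transcript levels of 10 genes that encode homeostatic and neutrophil-attracting chemokines and their receptors were compared in the mouse corpus callosum, the main bundle of myelinated axons between the hemispheres, with and without cuprizone. The genes were taken by name: the homeostatic ligands Cxcl12 and Cxcl14 with the receptor Cxcr4, the membrane-anchored ligands Cxcl16 and Cx3cl1 with the receptor Cxcr6, and the neutrophil-attracting ligands Cxcl1, Cxcl2 and Cxcl5 with the receptor Cxcr2. All 10 were found, each on 1 transcript cluster (the set of probes that reports a gene), among 19938 genes measured by a cluster of their own. Cuprizone binds copper, and mice fed with it lose oligodendrocytes. The 4 control arrays came from male wild-type C57BL/6 mice aged 8 weeks on normal diet, and the 4 cuprizone arrays from mice of the same strain, sex and age that received 0.25% cuprizone for 1 week. All mice were perfused before dissection, and the labels call the arrays biological replicates without stating whether an array held 1 animal or a pool.

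Chemokines are small secreted or membrane-anchored proteins that steer cell migration through G protein-coupled receptors. CXCL12, acting on CXCR4, guides progenitors and leukocytes and is made constitutively in brain vessels and some neurons. CXCL14 is another constitutively made ligand. CXCL16 and CX3CL1 (fractalkine) are the chemokines made as transmembrane proteins. They are shed by the proteases ADAM10 and ADAM17 and bind CXCR6 and CX3CR1, and in the brain CX3CL1 is made by neurons and CX3CR1 by microglia. CXCL1, CXCL2 and CXCL5 are induced through NF-kappaB in inflamed tissue and draw neutrophils through CXCR2.

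Promoters are shown for 3 members. Cxcl1 and Cxcl2 are shown for a stretch of letters that they share, and Cxcr4 as a member that rose. The sequences are the 250 bases before the annotated start, 5′ to 3′ on the gene's strand, from RefSeq on build GRCm38.p6, where 8 of the 10 members had an entry. Capitals mark GGGAATTTCCCTGG, the longest run of letters that the Cxcl1 and Cxcl2 windows share, whose first 10 letters, GGGAATTTCC, are a form of the kappaB motif bound by NF-kappaB. Capitals also mark the TATA motif letters TATAAA on either strand. In Cxcr4 the capitals hold overlapping TATAAA matches on the opposite strands.
Cxcl1, chr5:90890995-90891244, plus strand: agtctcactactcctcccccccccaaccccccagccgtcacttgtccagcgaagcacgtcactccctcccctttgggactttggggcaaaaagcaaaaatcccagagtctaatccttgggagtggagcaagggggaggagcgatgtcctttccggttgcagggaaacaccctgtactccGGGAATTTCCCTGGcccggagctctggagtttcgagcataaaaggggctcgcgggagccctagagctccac
Cxcl2, chr5:90903649-90903898, plus strand: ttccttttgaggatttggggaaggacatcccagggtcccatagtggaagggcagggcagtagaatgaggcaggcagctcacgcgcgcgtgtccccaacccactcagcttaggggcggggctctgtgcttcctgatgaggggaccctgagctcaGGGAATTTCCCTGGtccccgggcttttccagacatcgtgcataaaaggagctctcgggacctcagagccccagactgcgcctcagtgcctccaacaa
Cxcr4, chr1:128592300-128592549, minus strand: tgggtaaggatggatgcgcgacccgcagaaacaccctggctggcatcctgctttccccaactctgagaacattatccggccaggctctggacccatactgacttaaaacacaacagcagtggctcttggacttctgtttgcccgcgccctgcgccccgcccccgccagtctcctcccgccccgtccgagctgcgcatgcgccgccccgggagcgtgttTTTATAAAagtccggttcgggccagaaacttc
The kappaB letters began 71 bases before the start of Cxcl1 and 97 bases before that of Cxcl2, and were found in neither Cxcr4, Cxcl12, Cxcl14, Cx3cl1, Cxcr6 nor Cxcr2. Of 32851 promoters in the table, 28 (0.0852%) held the 10 kappaB letters in the same window on either strand, and the whole run of 14 letters was found in 2, those of Cxcl1 and Cxcl2 from which it was taken. The kappaB letters overlap that run by construction. TATAAA was found in Cxcr4 and Cx3cl1 and in 12.4% of all promoters. In Cx3cl1 it lay 6 to 1 bases before the start. The windows of Cxcl1 and Cxcl2 hold CATAAA, which differs from it in the first letter. The GC box letters GGGCGG occurred 5 times in Cxcl12, 3 times in Cxcr4 and once each in Cx3cl1 and Cxcl2, and in 32.7% of all promoters. The AP-1 letters TGACTCA (4.46% of promoters) and the E-box letters CACGTG (6.02%) were in none of the 8. The motifs were chosen after the sequences had been read, and a match describes letters, not binding. The kappaB form was taken from the Cxcl1 and Cxcl2 windows. Of each motif only the exact letters given were searched, so other forms may be present in any of the promoters.

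After 1 week of cuprizone, Cxcl16 was 1.91-fold and Cxcr4 1.46-fold higher, and Cxcl14 was 1.24-fold and Cxcl12 1.16-fold lower. The other 6 members, among them all 4 of the neutrophil-attracting axis, did not pass the test. By limma, with p-values adjusted over all 23410 gene-named clusters and a threshold of 0.05, 2 members rose and 2 fell. Of all clusters tested, 4.71% were higher and 3.52% lower, 8.22% in either direction. The groups did not overlap for those same 2 higher and 2 lower members, as for 8.24% of all clusters on the higher and 7.09% on the lower side (15.3% in all). The median log2 fold change was 0.0076 over the 10 members and -0.0074 over all clusters.

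**Figure D1:**
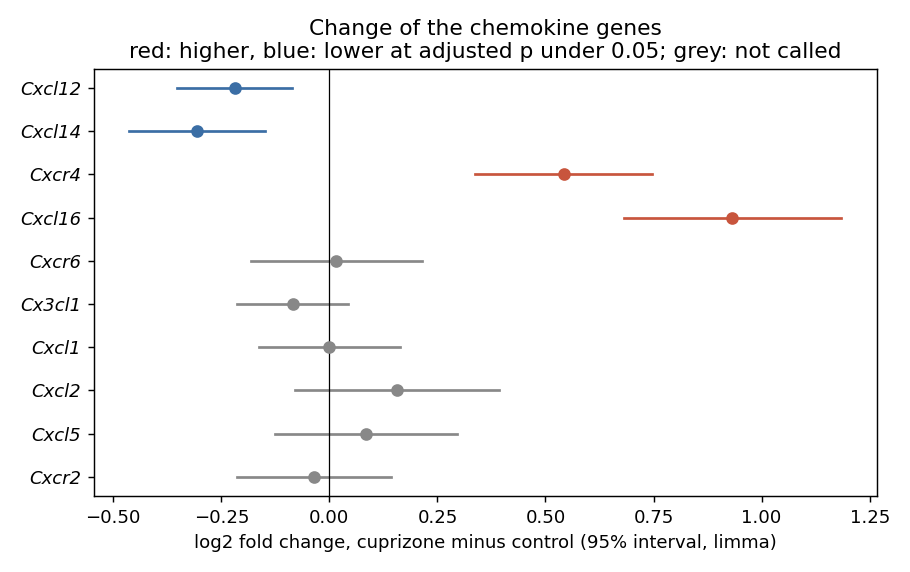
Log2 fold change of the 10 members, cuprizone minus control, with 95% intervals from limma (4 arrays a group). Cxcl16 (0.93) and Cxcr4 (0.54) lie to the right of 0, Cxcl12 (-0.22) and Cxcl14 (-0.31) to the left, and the intervals of the other members include 0.

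The arrays behind these values had medians of 7.44 to 7.49 over the gene-named clusters, on the deposited log2 scale, and their number limits the precision. On the first principal component, which separated the groups, control replicate 2 and cuprizone replicate 2 lay nearest to each other (-13.2 and 8.73, against -18.6 to -18.1 and 16.5 to 22.5 for the other arrays of their groups). The tissue label was checked against cell markers. Transcripts of mature oligodendrocytes were bright in the controls, with Mog at 11.14 ± 0.12 (mean log2 level ± SD, n = 4), and the neuronal transcripts Snap25 and Camk2a lay at the 99.8 percentile of clusters by mean level, so neuronal RNA was present in the dissected tissue. In bulk tissue fewer cells of a type and less RNA per cell cannot be told apart.

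Among the homeostatic genes, Cxcl12 stood at 8.06, 7.95, 8.08 and 8.04 on control replicates 1 to 4 and at 7.77, 7.77, 7.77 and 7.94 on cuprizone replicates 1 to 4 (log2 levels). Every cuprizone array lay below every control array, but cuprizone replicate 4 came within 0.01 of control replicate 2. The log2 fold change was -0.22 ± 0.06 (SE), with a limma adjusted p of 0.0486 and an exact two-sided permutation p of 0.0286, the smallest that 4 arrays against 4 allow. The limma call was lost when any 1 of 7 arrays was left out, all but cuprizone replicate 4, with an adjusted p of up to 0.120 and a log2 fold change of -0.26 to -0.20.

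Cxcl14 stood at 9.24, 9.24, 9.41 and 9.15 on the control arrays and at 9.02, 9.03, 8.82 and 8.94 on the cuprizone arrays. The groups did not overlap, and cuprizone replicate 3 was lowest. The log2 fold change was -0.31 ± 0.07 (limma adjusted p = 0.0220). The call was lost without control replicate 1, 2 or 3 or cuprizone replicate 3 or 4, with a limma adjusted p of up to 0.0640 and a change of -0.34 to -0.26. The fall in Cxcl12 was 0.09 ± 0.08 smaller than that in Cxcl14 on the log2 scale, a difference within the spread between arrays (exact two-sided permutation p = 0.314). It was 0.042 without cuprizone replicate 4 and 0.13 without control replicate 4, the ends of its range when 1 array was left out.

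Cxcr4, the receptor of CXCL12, changed in the other direction from its ligand. It stood at 7.21, 7.05, 6.76 and 7.00 on the control arrays and at 7.56, 7.43, 7.68 and 7.51 on the cuprizone arrays. All cuprizone arrays lay above all control arrays. The log2 fold change was 0.54 ± 0.09 (limma adjusted p = 0.00395), and it stayed between 0.46 and 0.61 with an adjusted p of at most 0.0151 whichever array was left out. The level of Cxcl12 minus that of Cxcr4, taken within each array, fell by 0.76 ± 0.13 with cuprizone, without overlap between the groups. Its exact permutation p was 0.0286, the smallest possible, and 0.0571 adjusted over the 6 pairs of members compared, so it did not pass the threshold of 0.05.

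Cxcl16 had the largest change of the 10. It stood at 5.44, 5.90, 5.53 and 5.74 on the control arrays and at 6.60, 6.33, 6.80 and 6.61 on the cuprizone arrays. The lowest cuprizone array, replicate 2, lay above the highest control, which was also replicate 2. The log2 fold change was 0.93 ± 0.11 (limma adjusted p = 0.000459), with a 95% interval of 1.60 to 2.27 for the fold. Without any 1 array it lay between 0.86 and 1.02, with an adjusted p of at most 0.00237. The Cxcl16 cluster was in the dimmer part of the arrays, at the 27.2 percentile of mean level among the clusters tested, so the size of its change may be compressed. On the cuprizone arrays Cxcl16 and Cxcr4 were both highest on replicate 3 and lowest on replicate 2.

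Cx3cl1, the other membrane-anchored chemokine, stood at 11.23, 11.35, 11.41 and 11.28 on the control arrays and at 11.19, 11.19, 11.29 and 11.25 on the cuprizone arrays. The groups overlapped, although all 4 cuprizone arrays lay below the control mean. The log2 fold change was -0.08 ± 0.06, with a 95% interval of -0.21 to 0.04 (limma adjusted p = 0.478), and it was -0.05 without control replicate 3. The level of Cxcl16 minus that of Cx3cl1 rose by 1.02 ± 0.13, again without overlap (exact permutation p = 0.0286, adjusted over the 6 pairs 0.0571).

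Cxcr6, the receptor of CXCL16 on T, NK and NKT cells, stood at 4.90, 4.97, 5.16 and 5.12 on the control arrays and at 5.15, 5.23, 4.98 and 4.86 on the cuprizone arrays. The groups overlapped fully in range, and the log2 fold change was 0.02 ± 0.09 (95% interval -0.18 to 0.21, limma adjusted p = 0.948). Its cluster lay at the 13.1 percentile of mean level among the clusters tested. Such a rank describes the brightness of a cluster and does not order genes by abundance, because probes differ in affinity. Detection calls were not used here, so it is not known whether a dim cluster was above background. Cxcl16 minus Cxcr6 rose by 0.92 ± 0.20 without overlap (exact permutation p = 0.0286, adjusted 0.0571).

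**Figure D2:**
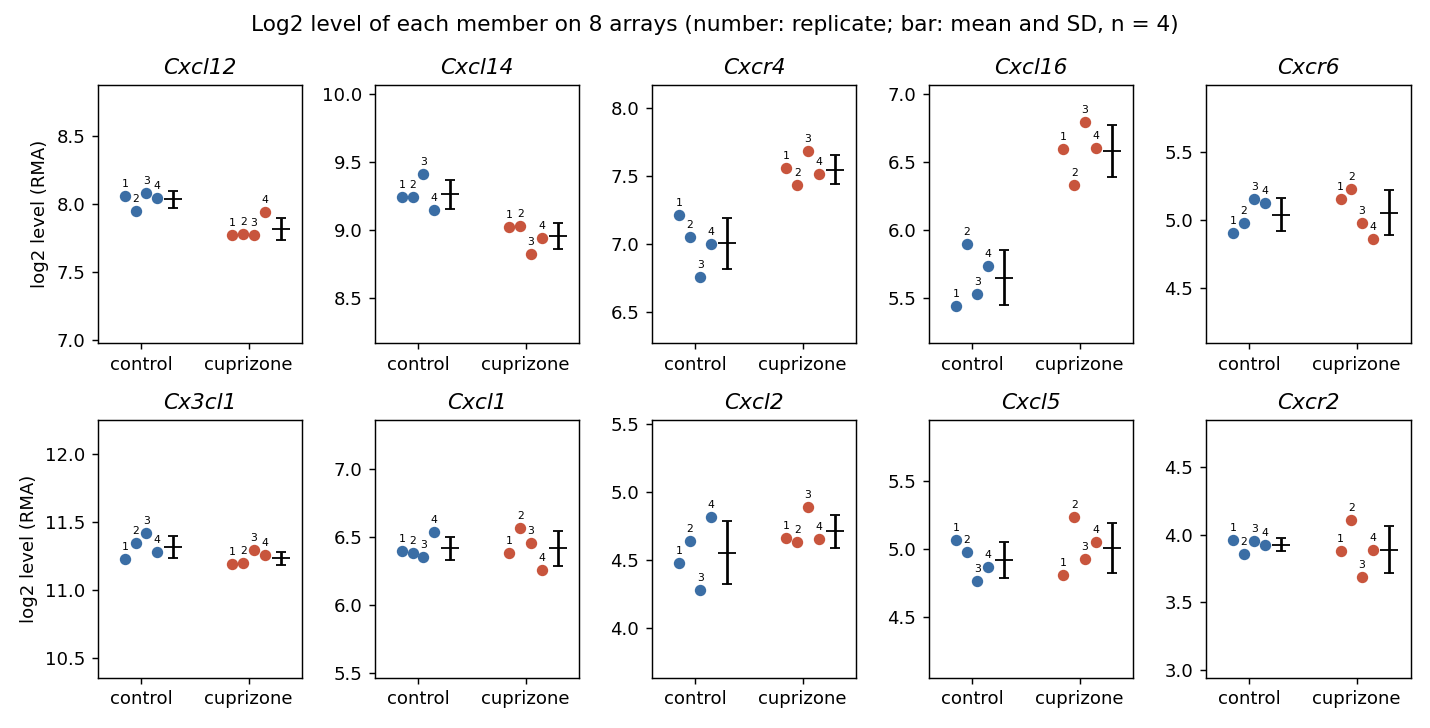
Log2 level of each member on the 8 arrays, by group and replicate number, with the mean and SD of 4 arrays beside the points; every panel spans the same height on the log2 scale. The groups are separated for Cxcl12, Cxcl14, Cxcr4 and Cxcl16 and overlap for the other 6 members.

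The neutrophil-attracting ligands showed no change that passed the test. Cxcl1 stood at 6.40, 6.38, 6.35 and 6.54 on the control arrays and at 6.38, 6.57, 6.46 and 6.26 on the cuprizone arrays. The control mean and the cuprizone mean were both 6.42, and the 95% interval of the fold was 0.893 to 1.12 (limma adjusted p = 0.998). A change inside that interval cannot be told from none with 4 arrays a group.

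Cxcl2 stood at 4.48, 4.64, 4.28 and 4.82 on the control arrays and at 4.66, 4.63, 4.89 and 4.66 on the cuprizone arrays. All cuprizone arrays lay above the control mean, but control replicate 4 was above 3 of them. The log2 fold change was 0.16 ± 0.11 (95% interval of the fold 0.946 to 1.31, limma adjusted p = 0.476). It was 0.06 without control replicate 3 and 0.24 without control replicate 4, the ends of its range when 1 array was left out. Cxcl1 minus Cxcl2 changed by -0.16 ± 0.12, within the spread between arrays (exact permutation p = 0.229), and lay between -0.23 (without cuprizone replicate 2) and -0.088 (without control replicate 3) when 1 array was left out. Whether the promoter letters that these neighbouring genes share, shown above, bear on their levels was not tested.

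Cxcl5 stood at 5.07, 4.98, 4.77 and 4.87 on the control arrays and at 4.81, 5.24, 4.92 and 5.05 on the cuprizone arrays. The ranges overlapped, and the log2 fold change was 0.09 ± 0.10 (95% interval of the fold 0.917 to 1.23, limma adjusted p = 0.698). With 1 array left out, the Cxcl5 change ran from 0.0080, when cuprizone replicate 2 was removed, to 0.15, when cuprizone replicate 1 was. Cxcr2, the receptor that neutrophils carry, stood at 3.96, 3.86, 3.95 and 3.93 on the control arrays and at 3.88, 4.11, 3.69 and 3.89 on the cuprizone arrays. The cuprizone arrays lay on both sides of the controls, and the log2 fold change was -0.04 ± 0.08 (95% interval of the fold 0.862 to 1.10, limma adjusted p = 0.872). Cxcl1 minus Cxcr2 changed by 0.04 ± 0.10 (exact permutation p = 0.743). Cxcl2, Cxcl5 and Cxcr2 were dim, at the 9.47, 12.2 and 4.26 percentiles of mean level, where array values of large changes are compressed. Cxcl1, Cxcl2 and Cxcl3 are close paralogues, and cross-hybridisation between their probes was not tested.

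The list of genes that regulate neutrophil-attracting chemokines held, among others, cytokines, receptors and adaptors of interleukin 1, interleukin 6, interleukin 17 and TNF, colony-stimulating factors, NF-kappaB subunits, and the restraining factors Nfkbia, Tnfaip3, Zc3h12a and Zfp36. Of its 19 measured genes 7 rose and none fell, with a median log2 fold change of 0.17. Il1a, the alarmin cytokine IL-1 alpha, rose 2.20-fold (1.14 ± 0.09, limma adjusted p = 2.11e-05), the TNF receptor gene Tnfrsf1a 2.00-fold (1.00 ± 0.11), the NF-kappaB subunit genes Rela 1.52-fold (0.60 ± 0.08) and Nfkb2 1.41-fold (0.50 ± 0.06). Il1b (0.49 ± 0.10), Myd88, the adaptor of IL-1 and Toll-like receptors (0.77 ± 0.11), and Zfp36 (0.67 ± 0.11) were the other genes of the list that rose. Zfp36, one of the restraining factors, destabilises cytokine transcripts. Tnf (0.10 ± 0.09), Il17a (-0.11 ± 0.10) and the feedback inhibitor Nfkbia (-0.03 ± 0.08) did not pass the test. Il6 did not pass either (0.24 ± 0.10, limma adjusted p = 0.183), although its groups did not overlap. Its cluster was dim, at the 1.88 percentile of mean level. Traf3ip2 (0.17 ± 0.06) and Nfkbiz (0.18 ± 0.07) leaned higher and Csf3 (-0.16 ± 0.06) lower, all without a call.

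None of 11 listed other CXC, CX3C and C chemokines and receptors passed the limma threshold, and their median was 0.0047. That list left out the receptor CXCR3 and its ligands, which were not analysed here, so it does not cover all other CXC genes. Cx3cr1, the microglial receptor of CX3CL1, stood at 8.57 to 8.84 on the control arrays and at 8.83 to 9.13 on the cuprizone arrays (0.27 ± 0.08, limma adjusted p = 0.0677), and 0.0331 without cuprizone replicate 1. Cxcl13, a B cell attractant, stood at 0.30 ± 0.10 (adjusted p = 0.109). None of 5 atypical receptors, which bind chemokines without G protein signalling, passed it either, with a median of 0.016. Ackr3, the scavenger of CXCL12, was at 0.02 ± 0.07, Ccrl2 at 0.13 ± 0.07 and Ackr1 at -0.10 ± 0.06.

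Of 15 genes for chemokine shedding and cleavage, 2 rose and 1 fell, with a median of 0.021. The protease inhibitor genes Timp1 (0.78 ± 0.12, limma adjusted p = 0.00175) and Timp3 (0.44 ± 0.08), which restrain metalloproteases, rose. Cpm, a membrane carboxypeptidase that trims the ends of peptides, fell 2.35-fold (-1.24 ± 0.12). The sheddases of CXCL16 and CX3CL1 did not pass the test, with Adam10 at -0.12 ± 0.07 and Adam17 at 0.10 ± 0.05, nor did Dpp4, a peptidase that inactivates CXCL12, at -0.26 ± 0.10. Without cuprizone replicate 1, Dpp4 was called as well, at -0.36 ± 0.07 (limma adjusted p = 0.0171), so that 2 genes of the list were lower.

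Downstream of the receptors, 5 of 24 signalling and desensitisation genes rose and 1 fell, with a median of 0.070. Dock2, a Rac activator of haematopoietic cells, rose 1.70-fold (0.77 ± 0.09, limma adjusted p = 0.000282), the exchange factor Vav1 1.45-fold (0.54 ± 0.07) and the phospholipase Plcb2 1.34-fold (0.42 ± 0.08), followed by Rac2, whose call was lost without control replicate 3 (adjusted p = 0.0537), and Pik3cg. Gnai1, an inhibitory G protein subunit, fell 1.25-fold (-0.32 ± 0.05).

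**Figure D3:**
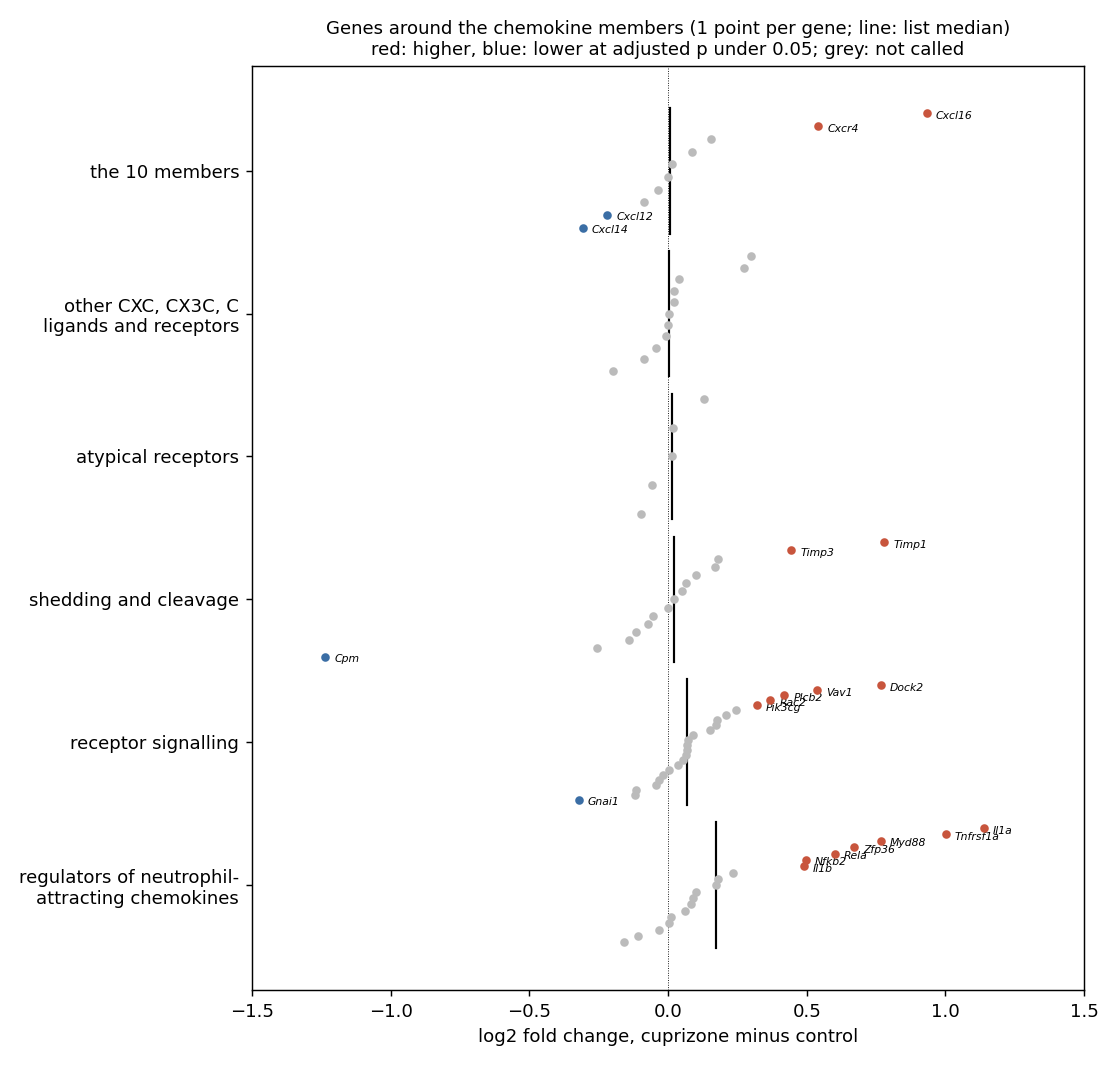
Log2 fold change, cuprizone minus control, of each gene of the members and of 5 lists around them; red and blue points were called higher or lower by limma, and black lines are list medians. Red points are most numerous in the list of regulators of neutrophil-attracting chemokines (7 of 19). No point is coloured among the listed other CXC, CX3C and C genes, which leave out CXCR3 and its ligands, or the atypical receptors.

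Markers of the cells that could carry these transcripts were read on the same arrays, and their part in the members' changes was not tested. Of 11 measured microglia markers 6 rose, 5 did not pass the test and none fell, with a median of 0.28. Csf1r, the receptor on which microglia depend, rose 1.53-fold (limma adjusted p = 0.000164), next to Olfml3 (0.51 ± 0.08), Aif1 (0.46 ± 0.11) and Tmem119 (0.28 ± 0.07). Among those that did not pass were P2ry12 (-0.06 ± 0.09, limma adjusted p = 0.789) and P2ry13 (-0.05 ± 0.10, adjusted p = 0.848), purine receptors of resting microglia, and Siglech (0.05 ± 0.06, adjusted p = 0.740). The summed linear level of the list ran from 3240 to 3506 on the control arrays and from 3929 to 4841 on the cuprizone arrays, without overlap. Fewer of these markers passed when any 1 array other than cuprizone replicate 1 was left out. The fewest were 2 of 11 without control replicate 1 or 4 or cuprizone replicate 4, and 3 without cuprizone replicate 3. Aif1 and Tmem119 were among those lost in some of these fits. Without cuprizone replicate 1, another marker lost its call while Cx3cr1 gained one (limma adjusted p = 0.0331). On the cuprizone arrays the mean of the list was highest on replicate 3 and lowest on replicate 1. Cxcl16 and Cxcr4 were highest on replicate 3 and lowest on replicate 2, the cuprizone array nearest to the controls on the first principal component. Whether these orders are related was not tested, and 4 arrays are too few to decide it.

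All 11 measured markers of mature oligodendrocytes fell, with a median of -2.15, among them the myelin genes Mog (13.8-fold), Mal (8.08-fold), Ugt8a (4.64-fold) and Cldn11 (4.43-fold). Their summed level ran from 25310 to 29471 on the control arrays and from 5105 to 8511 on the cuprizone arrays. Markers of endothelium, a known source of Cxcl12, were not called (0 of 11, median -0.12), with Kdr at -0.24 ± 0.07 (limma adjusted p = 0.0671) and Vwf at 0.23 ± 0.07. Their summed level was 3291 to 3413 in controls and 3061 to 3296 with cuprizone. Of 8 pericyte and smooth muscle markers 1, Tagln, rose (0.44 ± 0.08), and without cuprizone replicate 2 another, Pdgfrb, was called lower (-0.22 ± 0.06).

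No marker of oligodendrocyte progenitors (0 of 7, median -0.083) or neurons (0 of 11, median -0.055) was called. In these lists the lowest p belonged to C1ql1 (-0.28 ± 0.09) and Pdgfra (-0.24 ± 0.10), and to Slc17a7 (-0.15 ± 0.05) and Neurod6 (-0.22 ± 0.09). Their summed levels overlapped between the groups, at 2918 to 3227 and 2691 to 3197 for progenitors and 36970 to 40283 and 36809 to 37698 for neurons. C1ql1 was called lower without control replicate 2 and Neurod6 without cuprizone replicate 4. Astrocyte markers moved both ways, 3 of 10 higher and 2 lower, with Gfap at 0.96 ± 0.06, Aldh1l1 at 0.32 ± 0.07, Slc1a2 at -0.60 ± 0.07 and Gja1 at -0.43 ± 0.11. The call of Gja1 was lost without control replicate 1 or 4 or cuprizone replicate 1 or 4, leaving 1 lower. The third higher marker, the glutamate transporter Slc1a3 (0.32 ± 0.09, limma adjusted p = 0.0451), had overlapping groups and lost its call without control replicate 2, 3 or 4 or cuprizone replicate 1, 2 or 4 (adjusted p of 0.0862 to 0.118), leaving 2 higher.

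Of 16 measured neutrophil markers 1 rose, Csf3r (0.58 ± 0.09, limma adjusted p = 0.00278), the receptor for G-CSF, which other myeloid cells also carry. Lcn2, which reactive astrocytes also make, stood at 0.85 ± 0.28 and was called without control replicate 2, at 1.17 ± 0.17 (limma adjusted p = 0.00218). The S100 and Ly6g genes that define neutrophils did not pass the test. S100a8 stood at 5.11 ± 0.13 in controls and 5.13 ± 0.06 with cuprizone, S100a9 at 5.84 ± 0.14 and 5.79 ± 0.19, and Ly6g at 4.63 ± 0.06 and 4.75 ± 0.14. The summed level of the list overlapped between the groups, at 771 to 883 and 880 to 959. S100a8, S100a9 and Ly6g were dim, at the 13.7, 22.5 and 9.99 percentiles of mean level. Detection calls were not used, so these values do not show whether neutrophils were present.

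None of 20 T, NK and NKT cell markers, the cells that use CXCR6, was called (median 0.028), with Zbtb16 at 0.23 ± 0.09 and Cd247 at 0.16 ± 0.06. Zbtb16, which is not restricted to these cells, was called higher without cuprizone replicate 1. Some markers of this list were dim, with Cd3g and Klrb1c at the 10.6 and 2.98 percentiles of mean level. Whether T, NK and NKT cells were present is therefore not known. Of 10 monocyte and dendritic cell markers 1 rose, the integrin gene Itgax (0.92 ± 0.16), which activated microglia also express. The monocyte marker Ccr2 was dim as well, at the 3.24 percentile. Of 7 border macrophage markers none was called, with Lyve1 at 0.11 ± 0.06 and Cd163 at 0.09 ± 0.07. Markers of meningeal fibroblasts (0 of 9) and of red blood cells, of which only Alas2 was measured (0.03 ± 0.10), were not called either, with Igf2 at -0.34 ± 0.14 and Col1a1 at -0.21 ± 0.10. Igf2 was called lower without cuprizone replicate 2.

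**Figure D4:**
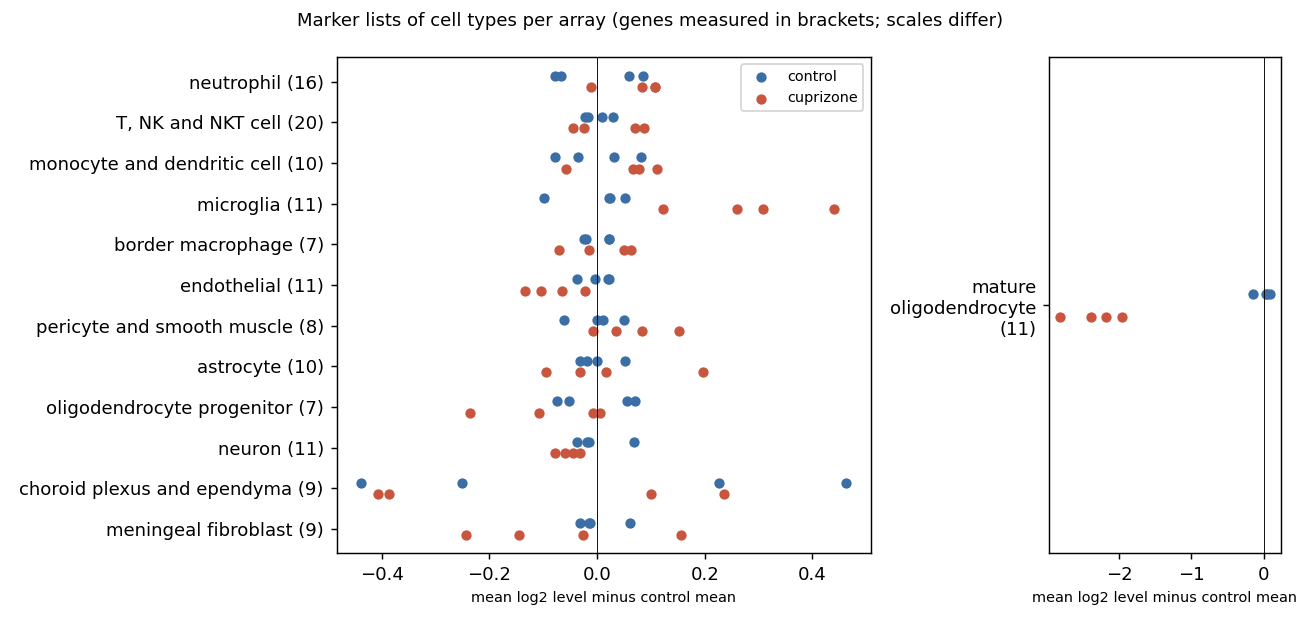
Mean log2 level of each list of cell type markers on every array, relative to the mean of the 4 control arrays, with mature oligodendrocyte markers on a scale of their own at right. The groups are separated for microglia (0.12 to 0.44 with cuprizone) and for mature oligodendrocytes (-2.82 to -1.96), and overlap in the other lists drawn.

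The genes whose levels ran most like those of each called member over the 8 arrays were listed by Pearson's r, as a description without a test, among 18242 genes. For Cxcl16 they were Hmox1, the haem oxygenase (r = 0.993), Upp1, a uridine phosphorylase (0.990), and Tnfrsf1a (0.990). For Cxcr4 they were Slc15a3, a peptide and histidine transporter (0.991), Tars, a threonyl-tRNA synthetase (0.989), and Derl1, of the degradation of misfolded proteins in the endoplasmic reticulum (0.981). Cxcl12 was nearest to Tmcc1 (0.979), Gnptab (0.975) and Nat14 (0.974), and Cxcl14 to Tob2 (0.965), Kbtbd11 (0.961) and the chloride channel Clcn2 (0.959). These correlations span both diets and so contain the difference between the groups.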

How the data were processed

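Total RNA (150 ng a sample) was labelled and hybridised to Affymetrix Mouse Gene 1.0 ST arrays, per the labels' protocols. The authors deposited log2 levels, and the submitters' processing notes name Affymetrix Expression Console, RMA and Transcriptome Analysis Console without versions or roles. RMA as published normalizes arrays to a like distribution, so a shift shared by most genes cannot be seen and changes of dim clusters are compressed. Of 28944 clusters, 23410 had a gene symbol in the platform annotation and were tested, without a filter on low levels. Genes were read from clusters naming no other gene, the brightest where there were several.

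Cuprizone was compared with control by limma 3.58.1 in R 4.3.3 (linear model, moderated variances, no covariate, two-sided), adjusted by Benjamini-Hochberg. Errors after ± are SEs for changes and SDs for levels. The SEs of within-array differences come from the 4 values of each group, and those differences had exact permutation tests over 70 assignments. A simulation with the means and spreads of these 23410 clusters used independent normal noise without array effects. It changed 67 clusters by 1.5-fold, 67 by 2-fold and 66 by 4-fold. Of these, 59 of 67 at 1.5-fold and 66 of 67 at 2-fold were recovered, and 16 of 207 calls were false. Far fewer clusters were changed than the 1925 called in the data, and none by less than 1.5-fold. Recovery of changes as small as those of Cxcl12, Cxcl14 and Cxcr4 was therefore not tested.

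The members and lists were chosen with earlier results of these data known. Of each list, up to 4 called genes with the smallest p were named, or the 2 smallest where none was called. Il1b, Myd88, Zfp36, Rac2, Pik3cg, Tnf, Il17a, Nfkbia, Il6, Traf3ip2, Nfkbiz, Csf3, Ackr3, Adam10, Adam17, Dpp4, Lcn2, Pdgfrb, P2ry12, P2ry13, Siglech, Slc1a3, Snap25, Camk2a, S100a8, S100a9, Ly6g, Cd3g, Klrb1c and Ccr2 were named after their values were seen. Over all gene-named clusters, deviations from the group mean of same-numbered arrays had r of -0.19 to 0.21. The control array correlated best with the cuprizone array of its own number only for replicate 3, so numbers were not taken as pairs. Choroid plexus and ependyma markers did run alike by number, as given under other observations. List genes without a cluster of their own were not analysed here. Alternatives were the replicate block, leaving out arrays, another variance prior, other scalings, filters and cluster sets, and array weights.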

Additional observations from a re-analysis of the deposited data

Results flagged for a closer look

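The highest and lowest array of each group were set against the other 3 by Dixon's criterion for 55 named genes, in 110 groups of 4, and 3 stood apart. Chance alone gives about 1 in 20, or 5.5 of 110. Cxcl12 on cuprizone replicate 4 was at 7.94, against 7.77 on the other cuprizone arrays. Cxcl2 on cuprizone replicate 3 was at 4.89, against 4.63 to 4.66. The oligodendrocyte gene Ugt8a on control replicate 2 was at 10.90, against 11.13 to 11.18.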

How the results depend on the processing

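Cxcl16 and Cxcr4 kept their direction and their call in all 17 alternatives in which each was tested. Cxcl12 and Cxcl14 kept their direction in all 18. With the replicate number as a block, Cxcl12 (-0.22) had a limma adjusted p of 0.0884 and Cxcl14 (-0.31) of 0.0674, and 0 members were called lower. The arrays' deviations over all clusters matched best by number only for replicate 3. Paired sign flips of the member pairs cannot go below 0.125, and no pair had passed in the main test, so this alternative could change no call. Without control and cuprizone replicate 2 together, Cxcl12 (-0.24, adjusted p = 0.109) and Cxcl14 (-0.34, 0.0569) lost the call (0 lower) and Cxcr6 was at -0.064. With all 28944 clusters, Cxcl12 (-0.22) had 0.0630, leaving 1 member lower. Cxcr6 was at -0.00549 after centring on array medians and Cxcl1 at 0.00823 with array weights, neither called. Leaving out each array gave -0.26 to -0.20 for Cxcl12, -0.34 to -0.26 for Cxcl14, 0 to 1 members lower, -0.051 to 0.052 for Cxcl1, -0.042 to 0.081 for Cxcr6, -0.11 to 0.032 for Cxcr2, -0.0458 to 0.0861 for Cxcl1 minus Cxcr2, 1 to 2 shedding genes lower and 0 to 1 other chemokine genes higher. That 1 gene, Cx3cr1, was also called with a trend and robust prior, and above the lower quartile (1 gene) or median (1 gene) of levels. Clusters above the median left 3 members, none higher (0), because Cxcl16 and Cxcr4 were not tested; there 1 shedding, 2 signalling and 3 genes regulating neutrophil-attracting chemokines were higher. Above the lower quartile 4 members were not tested. Each member had 1 single-symbol cluster, so no other cluster of a gene could be tried. Of the list genes named, Alas2 ranged from -0.047 to 0.093 when each array was left out and was at -0.00261 with array weights. Dim clusters limit Cxcl2, Cxcl5, Cxcr6 and Cxcr2, and low brightness may also compress the change of Cxcl16. Where no cause is named, the cause was not tested.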

Other observations

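Transcripts of the choroid plexus and ependyma varied within both groups. The summed linear level of 9 markers ran from 1733 to 7715 on the control arrays and from 1898 to 6018 on the cuprizone arrays, and none was called (median -0.14, with Foxj1 at 0.21 ± 0.08 and Ccdc153 at -0.14 ± 0.06). The mean of the list was high on replicates 2 and 4 of both diets and low on replicates 1 and 3. None of the 4 called members was arranged in that way in both groups. On the control arrays alone, Cxcl16 was higher on replicates 2 and 4 (5.90 and 5.74) than on 1 and 3 (5.44 and 5.53). So was Cxcl2, which was not called (4.64 and 4.82, against 4.48 and 4.28). On the cuprizone arrays neither was arranged so, and a relation to the choroid plexus markers was not tested.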
